A study of Litchi chinensis with 30 samples.

Results

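The comparison described here is the difference between functionally female and functionally male litchi flower buds, averaged over the first 3 developmental stages. Each stage entered with its own mean for each sex, so the difference was taken within stages and then averaged. It used 18 of the 30 libraries of the series, 9 female and 9 male. Of the 37234 genes in the deposited table, 26746 had enough counts to be tested, and 546 of them differed by at least 2-fold at a false discovery rate (FDR) under 0.01.

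RNA was sequenced from whole flowers of the litchi (Litchi chinensis) cultivar 'Feizixiao'. The groups were female (F1 to F5) and male (M1 to M5) flowers with 3 libraries each, where stages 1 to 3 were buds told apart by size, stage 4 was partly and stage 5 fully open flowers. The study's methods state that plant material was taken in triplicate from differently facing sides of the tree during the morning. Neither the labels nor the methods say whether the 3 libraries of a group came from separate trees, so the p-values below measure only the spread between these samples.

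Litchi carries its flower types on the same tree, in successive waves. A functionally female flower forms a complete pistil beside stamens whose anthers do not open, and a functionally male flower forms fertile stamens beside a pistil that is reduced or missing. Young buds of both types may therefore hold stamen as well as pistil tissue, which was not tested here. The plant circadian clock is a loop of transcription factors in which morning genes such as LHY and the LNK family alternate with afternoon and evening genes such as the pseudo-response regulators, and it sets the daily timing of many metabolic and light-response genes. The tapetum is the nurse tissue of the anther, which makes the sporopollenin precursors of the pollen wall. Gene names below are those of the closest Swiss-Prot entry in the deposited annotation, and the roles given are known from Arabidopsis unless another species is named.

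The bud libraries held 29930722 to 38075360 counts each, and their normalization factors lay between 0.969 and 1.04. Each library's mean correlation with the other 2 of its group lay between 0.933 and 0.960, and the 3 F2 libraries were the least alike. Both sexes carried the floral markers of the label: the B-class gene PI (LITCHI011302.m1), needed for stamens, stood at 178 to 313 FPKM in female and 184 to 334 FPKM in male buds, where FPKM is the authors' fragment count scaled to transcript length and library depth. STK (LITCHI011705.m1), the ovule identity gene, overlapped between the sexes over the 3 bud stages together. It stood at 1.09 to 6.33 FPKM in female and 0.856 to 3.25 FPKM in male buds. At stage 3 alone every female library lay higher, with 5.34, 6.33 and 4.53 FPKM in F3, against 2.82, 3.25 and 2.49 FPKM in M3. In open flowers the sexes did not overlap, at 11.8 to 13.5 FPKM in female and 0.175 to 0.677 FPKM in male flowers. In whole flowers, fewer cells of a type and less RNA per cell cannot be told apart.

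Of the 26746 genes tested, 2.04% were called in buds, 259 (0.968%) higher and 287 (1.07%) lower in female buds. The median size of the called differences was 1.44 on the log2 scale, and the median over all tested genes was 0.02. At the FDR threshold alone, without the 2-fold limit, 4114 genes (15.4%) passed, 1905 (7.12%) higher and 2209 (8.26%) lower, so most of the differences that the test detected were smaller than 2-fold. The sign of the difference was the same at all 3 stages for 531 of the 546 genes. These genes were chosen on the mean of the same 3 differences, which favours a shared sign. Taken alone, stage 1 gave 417 calls (1.56%), stage 2 171 (0.639%) and stage 3 277 (1.04%). Of the 546 pooled calls, 44 were also called at each of the 3 stages, 93 at 2 stages, 147 at 1 stage and 262 at none, so the pooled contrast called many genes that no single stage did. The sex difference itself changed among the stages, by the interaction test at an FDR under 0.01, in 46 genes (0.172%), 15 of them among the 546. In 82 of the 546 genes all 9 libraries of one sex lay above all 9 of the other, 21 with female above and 61 with female below. Over all genes tested, called or not, 379 (1.42%) were separated in this way, 151 (0.565%) with female above and 228 (0.852%) with female below. That count of 379 was 509 without F2-1, 412 without F2-2 and 781 without F2-3.

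**Figure D1:**
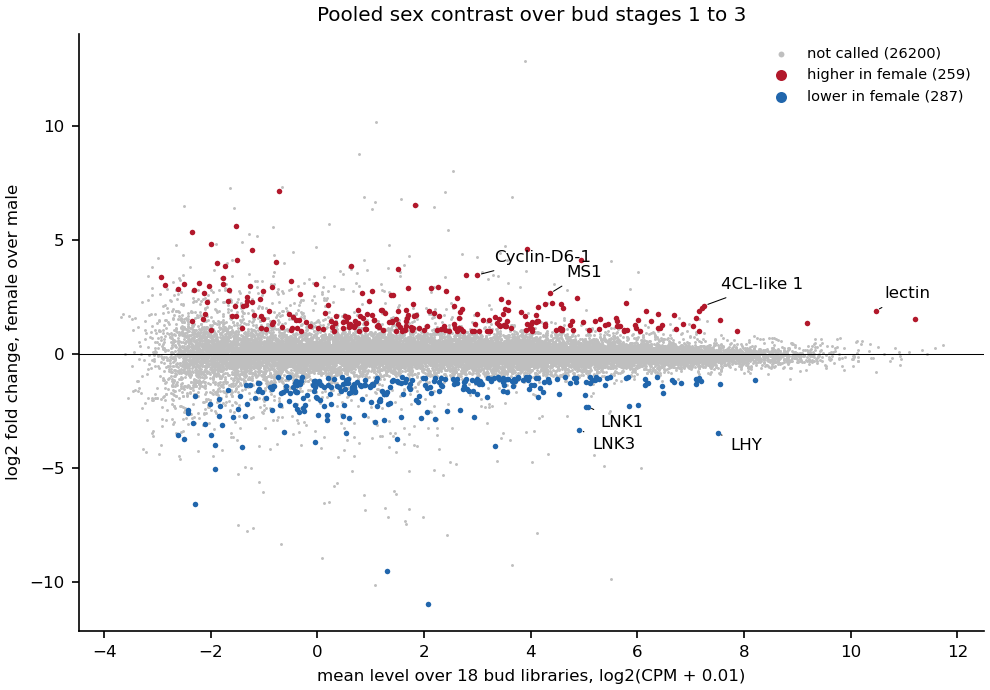
Log2 fold change of female over male buds, averaged over stages 1 to 3 (vertical axis), against the mean level over the 18 bud libraries in log2(CPM + 0.01), where CPM are counts scaled to library size (horizontal axis), with 1 point per tested gene. Red points are the 259 genes higher and blue points the 287 genes lower in female buds. LHY, LNK3 and LNK1 are marked among the lower genes, and MALE STERILITY 1 (MS1), 4-coumarate-CoA ligase-like 1 (4CL-like 1), Cyclin-D6-1 and a lectin among the higher ones.

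Among annotated genes with at least 5 CPM on average in the higher sex, the largest separated differences were in clock genes. All of the morning clock genes that were called were lower in female buds. LHY (LITCHI026770.m2), a MYB factor of the clock's core that peaks near dawn, stood at 5.01, 6.26 and 7.25 FPKM (lowest, median and highest of 9 libraries) in female buds, against 61.9, 66.9 and 73.8 FPKM in male buds. No library of either sex came near the other sex. The fitted log2 fold change was -3.47 ± 0.07 (SE; edgeR quasi-likelihood test, Benjamini-Hochberg FDR 1.75e-12), which is 11.1-fold lower in female buds, and it hardly varied over the stages, at -3.47, -3.42 and -3.52. A shorter entry of the same locus, LITCHI026770.m1, was lower too, at -4.01 ± 0.37, and how the reads were split between the entries is uncertain. With the counts of the locus summed, the difference remained -3.47.

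LNK3 (LITCHI019895.m1) belongs to a family of co-activators that act with REVEILLE factors. It stood at 2.35, 2.87 and 4.58 FPKM (lowest, median and highest) in female buds, against 13.5, 33.4 and 51.1 FPKM in male buds. The sexes did not overlap, and the log2 fold change was -3.32 ± 0.11 (FDR 3.58e-10). Its difference narrowed over the stages, at -4.17, -3.56 and -2.25, and the change among stages passed the sex by stage interaction test (FDR 0.00725). The narrowing lay mainly in the male buds, which held 51.1, 40.8 and 47.4 FPKM at stage 1, 36.9, 33.4 and 31.1 FPKM at stage 2, and 13.5, 20.4 and 25.9 FPKM at stage 3. The female buds stayed between 2.35 and 4.58 FPKM throughout. Its relative LNK1 (LITCHI001190.m1) stood at 1.74, 3.98 and 5.07 FPKM in female buds, against 13.5, 19.5 and 21.8 FPKM in male buds, a log2 fold change of -2.30 ± 0.16.

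REVEILLE 8 (LITCHI018530.m1), a MYB factor that activates afternoon genes together with LNK proteins, was just past the 2-fold limit at -1.01 ± 0.05. Its female buds held 10.1, 10.9 and 10.8 FPKM at stage 1, against 30.9, 25.9 and 25.9 FPKM in male buds. At stage 3 the values were 17.6, 17.1 and 17.5 FPKM in female and 19.8, 21.9 and 21.0 FPKM in male buds, still apart but by far less. The stage differences of -1.42, -1.28 and -0.32 passed the interaction test (FDR 0.00171). The call itself was lost under 8 of the alternative settings, stage 1 or stage 2 left out among them, while the direction stayed.

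In all, 5 of the 9 tested entries of the morning clock list were called, all lower (55.56%, against 1.07% of all genes tested). The 5 include both LHY entries given above, and with the entries of each locus summed 4 were called. The list's median log2 fold change was -1.01. At the FDR alone 8 of the 9 were lower (8.26% over all genes), and the uncalled ones were REVEILLE 1 (LITCHI022986.m1) at -0.91 and (LITCHI008053.m1) at -0.65, REVEILLE 3 (LITCHI025771.m1) at -0.31 and REVEILLE 6 (LITCHI009435.m1) at -0.14. Summed over the list, female buds held 69.7 to 75.3 FPKM at stage 1, against 243 to 252 FPKM in male buds, and 70.9 to 75.0 FPKM at stage 3, against 157 to 173 FPKM. The female sum was thus nearly level over the stages, and the male sum was lower at stage 3 than at stage 1.

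Of the evening and afternoon clock genes 2 of 20 were called, where 2.04% of all genes tested were, and the list's median was -0.12. At the FDR alone 5 were lower and 2 higher (8.26% and 7.12% over all genes). In 3 of the 20, all 9 female libraries lay below all 9 male ones (0.852% over all genes). Both called genes are APRR5 entries, pseudo-response regulators that repress the morning genes. APRR5 (LITCHI026785.m1) stood at 3.24, 6.67 and 7.24 FPKM in female buds, against 15.6, 29.1 and 32.2 FPKM in male buds, with no overlap and a log2 fold change of -2.22 ± 0.13 (FDR 1.06e-07). The other APRR5 entry (LITCHI012124.m1) was at -1.01 ± 0.14 and overlapped between the sexes. Its call was lost under 8 alternative settings. GIGANTEA (LITCHI011520.m1), which peaks late in the day, averaged 117 FPKM in both sexes (log2 fold change -0.04 ± 0.06). APRR7 (LITCHI018527.m1) was at -0.58, APRR1 (LITCHI023430.m1), the TOC1 gene, at 0.30, EARLY FLOWERING 4 (LITCHI025136.m1) at -0.29 and Adagio 3 (LITCHI005866.m1), a blue-light receptor, at -0.02, none of them called. The study's methods place collection inside a short morning window. The day and hour of each library are not given in the sources used here. Sex and time of collection cannot be told apart, for genes that cycle over the day or for any other gene called here.

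Genes that act downstream of the clock and of light moved in both directions. Of the 18 tested CONSTANS-like genes and cyclic DOF factors, 3 fell and 1 rose (22.22% in all, against 2.04% of all genes tested). Cyclic DOF factor 3 (LITCHI023451.m1), from a family that represses CONSTANS in the morning, stood at 1.56, 3.30 and 4.16 FPKM in female buds, against 5.87, 12.5 and 17.0 FPKM in male buds, and fell by 1.87 on the log2 scale. A second entry of that name (LITCHI005188.m1) fell by 1.63, and CONSTANS-LIKE 5 (LITCHI016333.m1) by 1.12. CONSTANS-LIKE 16 (LITCHI020651.m1) went the other way, with 18.7, 29.7 and 33.6 FPKM in female buds, against 6.04, 17.5 and 18.1 FPKM in male buds. It rose by a log2 fold change of 1.03 ± 0.10, a call lost under 4 of 32 alternative settings, stage 3 left out among them. B-box proteins, zinc finger relatives of CONSTANS that act in light signalling, were listed after their values had been seen. Of 13 tested, 4 were called, all lower (30.77%, against 1.07%). B-box 19 (LITCHI006504.m1) stood at 3.52, 6.71 and 8.40 FPKM in female buds, against 11.3, 23.4 and 27.0 FPKM in male buds (log2 fold change -1.79 ± 0.12). B-box 30 (LITCHI021216.m1), 21 (LITCHI001893.m1) and 32 (LITCHI031373.m1) were at -1.98, -1.23 and -1.08.

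**Figure D2:**
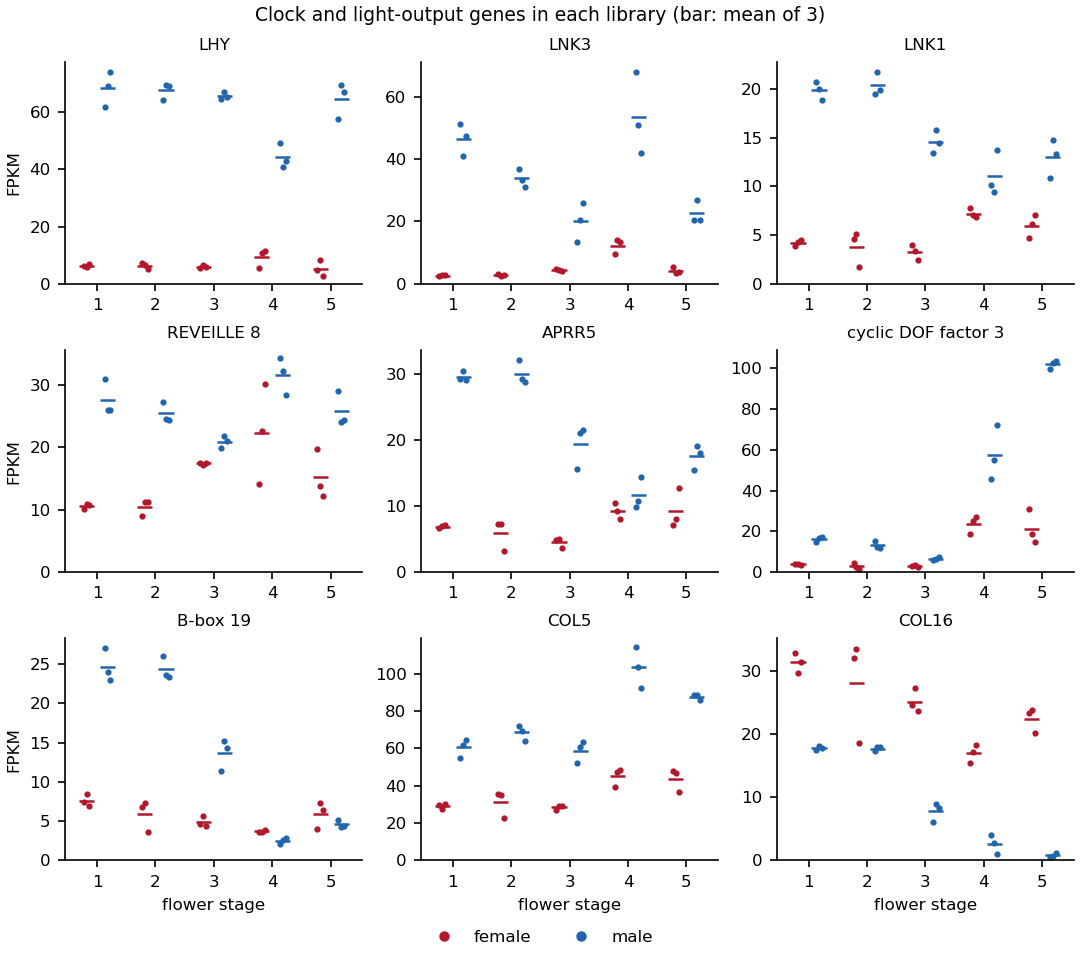
FPKM of 9 clock and light-output genes in each of the 30 libraries (vertical axes, from 0) against flower stage 1 to 5 (horizontal axes). Red points on the left of each stage are female and blue points on the right male, and bars are means of 3 libraries. LHY is low in all female libraries at every stage, LNK3 in male buds is lower at stage 3 than at stage 1, and CONSTANS-LIKE 16 (COL16) is the panel in which female buds lie higher.

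Other separated genes with large decreases included entries closest to the UV-B receptor UVR8. The entry LITCHI027651.m1 stood at 5.37, 7.04 and 8.52 FPKM in female buds, against 25.6, 31.5 and 43.5 FPKM in male buds (log2 fold change -2.29 ± 0.06, FDR 2.82e-11). The groups did not overlap. A second entry of the locus (LITCHI027651.m11) was at -2.33, and the split of reads between them is again uncertain. ATP sulfurylase 1 (LITCHI014891.m1), which starts sulfate assimilation, stood at 7.11, 9.08 and 12.2 FPKM in female buds, against 26.6, 30.8 and 35.6 FPKM in male buds, and fell by 1.72. A gene matching secoisolariciresinol dehydrogenase (LITCHI018926.m1), an enzyme of lignan synthesis in other plants, fell by 1.75. The disease resistance-like gene DSC1 (LITCHI024174.m2) fell by 2.75 at a low level, with at most 0.171 FPKM in female and 0.881 FPKM in male buds.

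Genes higher in female buds with no overlap between the sexes showed smaller differences. Among annotated genes with at least 5 CPM on average in female buds, the largest was 1.52 on the log2 scale. This was indeterminate-domain 12 (LITCHI004156.m1), a zinc finger transcription factor, at 2.85, 5.10 and 8.97 FPKM in female buds, against 1.35, 1.84 and 2.25 FPKM in male buds. NUTCRACKER (LITCHI026392.m1), of the same family, stood at 2.95, 4.72 and 7.39 FPKM in female buds, against 0.996, 1.89 and 2.33 FPKM in male buds, and rose by 1.48 ± 0.14. These were the only 2 of 16 tested indeterminate-domain genes that were called (12.5%, against 0.968% of all genes higher), in a list drawn up after the values were seen. The list's median was 0.20. The cyclophilin CYP19-4 (LITCHI027338.m1), a protein-folding enzyme, stood at 8.75, 11.3 and 13.03 FPKM in female buds, against 3.41, 4.04 and 4.53 FPKM in male buds (log2 fold change 1.48 ± 0.06, FDR 5.61e-09).

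A pair of genes closest to Myb-related protein 308, which represses phenolic synthesis in snapdragon, rose together. LITCHI002020.m1 stood at 7.70, 9.90 and 12.1 FPKM in female buds, against 2.54, 3.76 and 4.61 FPKM in male buds, a log2 fold change of 1.45 ± 0.09. LITCHI002019.m1 rose by 1.33 ± 0.07. Both sets were separated in buds, and both genes reached higher levels in open flowers of either sex. SPL5 (LITCHI013083.m1), a SQUAMOSA promoter-binding factor of the vegetative to reproductive transition, stood at 7.10, 10.6 and 12.6 FPKM in female buds, against 2.24, 4.55 and 6.31 FPKM in male buds, and rose by 1.24 ± 0.10.

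Salicylate carboxymethyltransferase (LITCHI006590.m1), which makes the volatile methyl salicylate in Clarkia, stood at 7.14, 12.7 and 16.2 FPKM in female buds, against 3.58, 4.73 and 7.04 FPKM in male buds (log2 fold change 1.34 ± 0.12). The lipid-transfer protein DIR1 (LITCHI015740.m1), a carrier in systemic resistance, stood at 41.4, 68.2 and 112 FPKM in female buds, against 16.4, 28.3 and 37.0 FPKM in male buds (1.29 ± 0.14). Snakin-2 (LITCHI022312.m1), an antimicrobial peptide of potato, stood at 61.6, 64.7 and 91.0 FPKM in female buds, against 25.9, 33.1 and 35.4 FPKM in male buds (1.10 ± 0.06). None of the 3 overlapped between the sexes. An aspartic proteinase (LITCHI014226.m1) rose by 1.43 and the receptor-like kinase PERK13 (LITCHI014561.m1) by 1.24. Cytochrome P450 82C4 (Litchi_chinensis_newGene_840), which makes an iron-mobilizing coumarin in roots, had 5.57, 5.86 and 5.39 FPKM in F1, against 1.36, 1.57 and 1.15 FPKM in M1, and 6.33, 5.57 and 6.09 FPKM in F3, against 3.51, 3.48 and 3.01 FPKM in M3. Its difference narrowed over the stages at 1.99, 1.19 and 0.79 (interaction FDR 0.00952), because the male level was higher at the later stage. It was the only one of these 24 separated genes that lost its call under any alternative setting, which was without stage 1.

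Of 20 tested genes of raffinose family sugars, soluble sugars that accumulate in cold, drought and drying seeds, 9 were called, all lower in female buds (45%, against 1.07% of all genes tested). They were gathered into a list after their values had been seen, and the list's median log2 fold change was -0.63. At the FDR alone 11 were lower and 1 was higher. Galactinol synthase 2 makes the galactosyl donor of the pathway, and its entry LITCHI004173.m1 stood at 25.7, 29.8 and 45.5 FPKM in female buds, against 40.9, 83.3 and 125 FPKM in male buds (log2 fold change -1.30 ± 0.11). Within each stage every male library lay above every female one, and the ranges over all 9 overlapped because male values were lower at stage 3, at 40.9, 52.1 and 59.0 FPKM. A further 4 entries of that name were called, LITCHI004175.m1 at -1.20, LITCHI004169.m1 at -1.10, LITCHI004167.m1 at -1.29 and LITCHI004172.m1 at -2.88. Galactinol synthase 3 (LITCHI004174.m1) had no count in any F2 or F3 library, against 9, 18 and 21 counts in M2 and 7, 13 and 13 counts in M3, so it was at least 15.8-fold lower at stage 2 and at least 11.0-fold lower at stage 3, taking a floor of 3 counts over a group.

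Downstream in the pathway, a raffinose synthase (LITCHI020575.m1) stood at 21.1, 41.5 and 53.2 FPKM in female buds, against 43.1, 102 and 128 FPKM in male buds, and fell by 1.30. A second raffinose synthase (LITCHI022523.m1) fell by 1.14. Stachyose synthase (LITCHI026584.m1) stood at 5.59, 10.7 and 11.5 FPKM in female buds, against 11.9, 20.1 and 22.2 FPKM in male buds, and fell by 1.05. Of the called enzymes stachyose synthase alone was fully separated between the sexes. Summed over the list, female buds held 488 to 511 FPKM at stage 1, against 836 to 874 FPKM in male buds, and 346 to 376 FPKM at stage 3, against 381 to 475 FPKM. Without stage 1 the count of called genes was 5.

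In a list of abscisic acid and desiccation genes, also drawn up after the values were seen, 6 of 72 were called and all were lower (8.33%, against 1.07% of all genes tested). At the FDR alone 14 were lower and 5 higher. Abscisic acid is the hormone of drought and seed dormancy. Protein phosphatase 2C 8 (LITCHI009626.m1), of a family that holds repressors of the hormone's signal, stood at 4.88, 9.72 and 13.8 FPKM in female buds, against 7.94, 28.5 and 36.2 FPKM in male buds (log2 fold change -1.36 ± 0.10). The kinase SAPK3 (LITCHI022672.m1), of a family that carries the signal in rice, stood at 2.01, 5.26 and 7.09 FPKM in female buds, against 8.38, 12.7 and 14.6 FPKM in male buds (-1.37 ± 0.19). It was the one member with no overlap between the sexes. Another phosphatase 2C entry (LITCHI021945.m1) was at -1.14, the Ninja-family protein AFP3 (LITCHI026955.m1) at -1.07 and LTI65 (LITCHI009341.m1), a hormone-induced stress protein, at -1.27, a call lost under 15 of 32 alternative settings. The ubiquitin ligase XERICO (LITCHI004848.m1), which raises the hormone's level, was at -1.01 with stage differences of -1.69, -1.0 and -0.35 (interaction FDR 0.00782). Without stage 1, 2 of these genes were called. The median of the list was -0.13, against 0.02 over all genes.

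**Figure D3:**
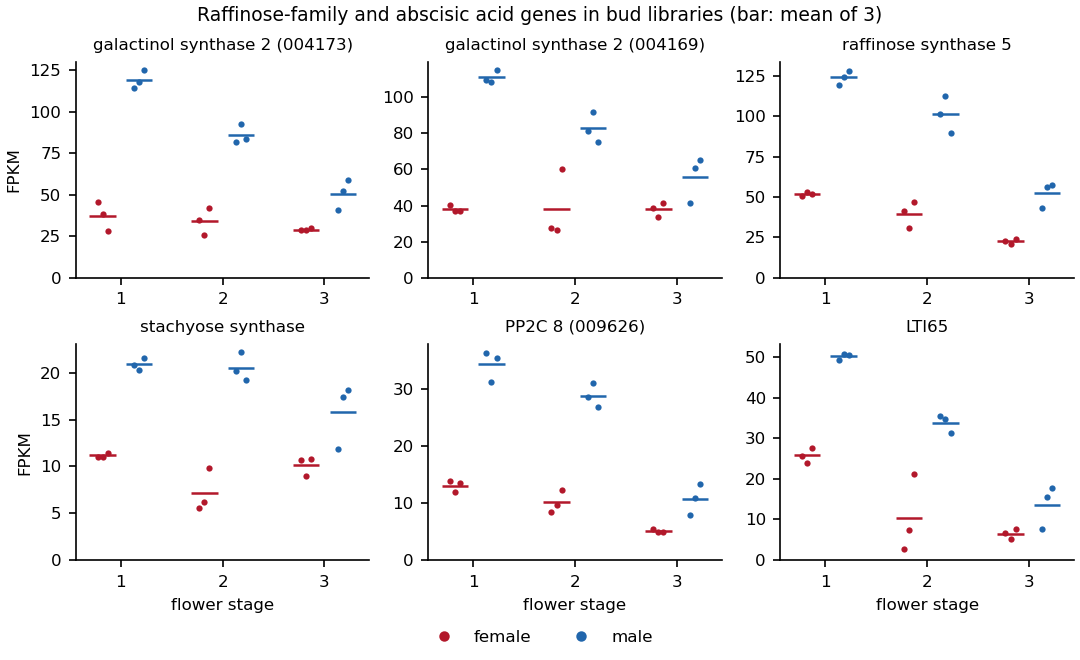
FPKM of 4 raffinose family genes and 2 abscisic acid genes in the 18 bud libraries (vertical axes, from 0) against bud stage (horizontal axes). Red points on the left are female and blue points on the right male, and bars are means of 3 libraries. Male values at stages 1 and 2 lie above those of stage 3 in these panels, and the sexes come closer at stage 3 in galactinol synthase 2.

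Of 26 tested tapetum and sporopollenin genes, 8 were called, all higher in female buds (30.77%, against 0.968% of all genes tested), though not evenly over the stages. The list's median log2 fold change was 0.66, and at the FDR alone 10 were higher and 1 was lower. In none of them were the 9 libraries of each sex separated, since their levels differed far more between stages 1 and 2 than between the sexes. The pathway's polyketide synthase A (LITCHI025403.m1) held 8.79, 9.11 and 11.3 FPKM in F1, against 2.27, 1.68 and 1.04 FPKM in M1. At stage 2 it held 187, 414 and 501 FPKM in F2, against 277, 323 and 284 FPKM in M2. At stage 3 it held 149, 246 and 153 FPKM in F3, against 42.3, 62.1 and 58.0 FPKM in M3. The sexes were apart at stages 1 and 3 and overlapped at stage 2, where the F2 libraries were spread. The pooled log2 fold change was 1.5 ± 0.19, and without stage 1 it was 1.01 (FDR 0.0210).

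Other enzymes of sporopollenin synthesis had the same shape. Tetraketide pyrone reductase 1 (LITCHI002216.m1) held 4.37, 5.14 and 4.22 FPKM in F1, against 1.54, 1.87 and 1.09 FPKM in M1, and 46.4, 74.4 and 46.2 FPKM in F3, against 13.9, 17.9 and 15.9 FPKM in M3. At stage 2 the sexes overlapped, with 73.6, 136 and 177 FPKM in F2, against 88.1, 88.3 and 87.3 FPKM in M2. Its pooled difference of 1.29 ± 0.16 was called under every alternative setting. Polyketide synthase B (LITCHI001957.m1) was at 2.46, the acyl-CoA ligases named 4-coumarate-CoA ligase-like 1 at 2.12 (LITCHI004645.m1) and 1.90 (LITCHI004650.m1), and tetraketide pyrone reductase 2 (LITCHI005521.m1) at 1.01, a call lost under 13 of 32 alternative settings.

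The called regulators of the tapetum list differed most at stage 1. ABORTED MICROSPORES (LITCHI002043.m1), a bHLH factor that switches on the pollen wall genes, held 2.34, 4.83 and 2.27 FPKM in F1, against 0.546, 0.182 and 0.427 FPKM in M1. At stage 2 it held 108, 126 and 115 FPKM in F2, against 91.6, 106 and 94.5 FPKM in M2, and at stage 3 40.4, 45.5 and 44.5 FPKM in F3, against 41.3, 50.2 and 47.6 FPKM in M3. The stage differences were 2.97, 0.25 and -0.15 (interaction FDR 0.00503), and without stage 1 the pooled difference was 0.05, not called. MALE STERILITY 1 (LITCHI005964.m1), a PHD-finger regulator of late tapetum development, had 10, 11 and 26 counts in F1 and none in M1, at least 15.2-fold higher in F1. It held 5.85, 20.2 and 25.3 FPKM in F2, against 16.5, 17.7 and 16.7 FPKM in M2, and 8.78, 17.0 and 11.8 FPKM in F3, against 4.56, 6.56 and 6.83 FPKM in M3. Without stage 1 its log2 fold change was 0.51 (FDR 0.315), against 2.67 over the 3 stages.

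Of 164 cell cycle genes 4 were called, all higher, which is 2.44% of them, against 2.04% of all genes tested. Cyclin-D6-1 (LITCHI013266.m1), a cyclin of formative cell divisions, held 0.270, 0.272 and 0.460 FPKM in F1, against 0 in all 3 M1 libraries. It held 7.07, 10.4 and 11.1 FPKM in F2, against 5.33, 7.41 and 6.68 FPKM in M2, and 2.72, 2.89 and 2.23 FPKM in F3, against 0.678, 0.662 and 0.479 FPKM in M3. Counted in reads, F1 had 20, 24 and 41, which is at least 27.6-fold above the floor. The other 3 match cell division control protein 2, the cyclin-dependent kinase of mitosis, at pooled log2 fold changes of 2.93 (LITCHI009729.m1), 2.89 (LITCHI017973.m1) and 1.92 (LITCHI006253.m1). For LITCHI017973.m1 the stage differences were 6.77, 0.42 and 1.48 (interaction FDR 0.0017), where the stage 1 value rests on 14, 13 and 13 counts in F1 and none in M1. LITCHI009729.m1 likewise had 6, 3 and 28 counts in F1 and none in M1, and its difference was 1.09 without stage 1.

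The summed level of the tapetum list moved with these results. It was 133 to 142 FPKM in F1, against 113 to 120 FPKM in M1, 878 to 2042 FPKM in F2, against 1178 to 1399 FPKM in M2, and 755 to 1118 FPKM in F3, against 349 to 482 FPKM in M3. The number of its genes called was 4 without stage 1, 11 without stage 2 and 5 without stage 3. Of 19 tested pollen markers 1 was called (5.26%, against 2.04% of all genes tested). This was the pollen allergen Che a 1 (LITCHI019342.m1) at 1.01, a call lost under 12 of 32 alternative settings. The pollen list's median was -0.01, and at the FDR alone 2 were higher and 0 lower (7.12% and 8.26% over all genes). None of 21 meiosis genes was called by edgeR or by DESeq2, where 6 had an unadjusted edgeR p under 0.05 (38.2% over all genes). A stage was defined by the size of the flower. Sex and developmental time within a stage cannot be told apart, for these genes or for any other gene called here.

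**Figure D4:**
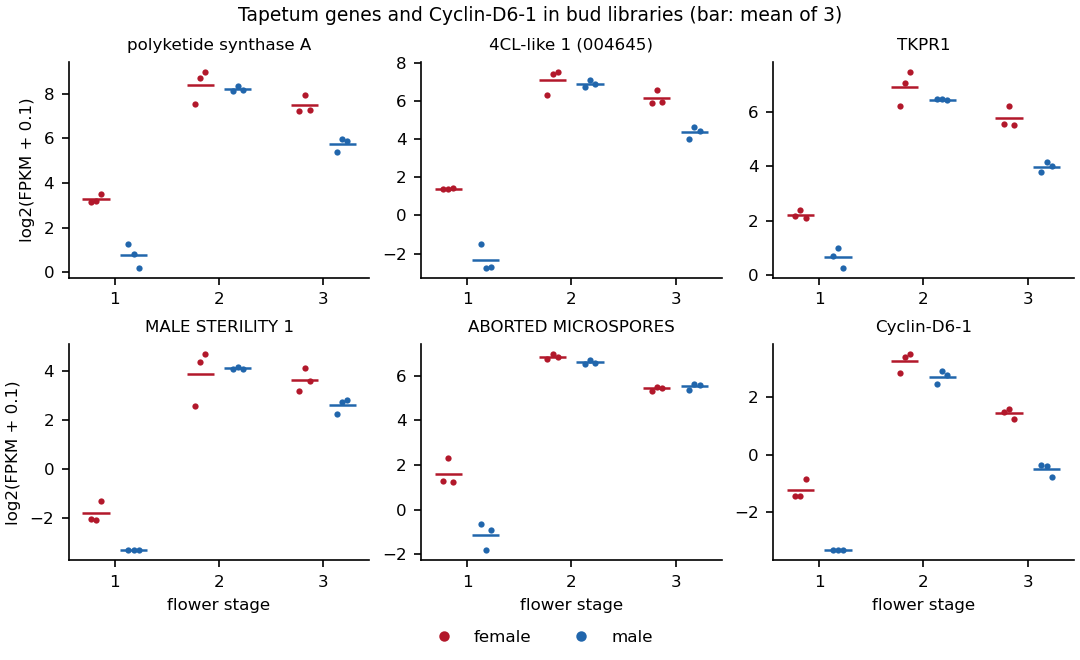
Level of 5 tapetum genes and Cyclin-D6-1 in the 18 bud libraries, as log2(FPKM + 0.1) (vertical axes), against bud stage (horizontal axes). Red points on the left are female and blue points on the right male, and bars are means of 3 libraries. Female values lie above male at stage 1 in each panel, the sexes come close at stage 2, and they part again at stage 3 except in ABORTED MICROSPORES.

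The MADS-box genes that specify floral organs, the subject of the series, differed little between buds of the sexes. None of the 11 identity genes was called by edgeR or DESeq2, against 2.04% of all genes, although 3 had an unadjusted p under 0.05 in edgeR (38.2% over all genes). AP1 (LITCHI005352.m1), which specifies sepals and the floral meristem, came closest. It stood at 85.5, 87.3 and 104.5 FPKM in female buds, against 106, 118 and 136 FPKM in male buds, with no overlap in library-scaled counts but a difference of only -0.43 ± 0.05 (FDR 3.45e-05). AP3-2 (LITCHI010203.m1), a B-class gene, was at 0.38 ± 0.07 (FDR 0.00175), and at stage 3 it held 33.2, 34.0 and 29.7 FPKM in F3, against 18.1, 19.4 and 17.8 FPKM in M3. STK was at 0.49 ± 0.14 (FDR 0.0206), and at 0.30 without stage 3.

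The remaining identity genes lay between -0.25 and 0.10. PI was at -0.03, the other B-class gene AP3-1 (LITCHI006530.m1) at -0.10, the C-class gene AG (LITCHI028933.m1) at 0.08 and SHP (LITCHI026995.m1), of valve margins and ovules, at 0.10. The SEP genes, cofactors of all organ classes, were at -0.16 for SEP1 (LITCHI019333.m4), -0.25 for SEP2 (LITCHI005351.m1), -0.05 for SEP3 (LITCHI004634.m1) and 0.08 for SEP4 (LITCHI023328.m1). Of 35 tested among all listed MADS-box genes, 1 was called (2.86%, against 2.04% of all genes tested). This was the type I gene matching AGL82 (LITCHI008374.m1), with 1.04, 1.49 and 1.77 FPKM in F1, against 0.135, 0.192 and 0.169 FPKM in M1. Its pooled log2 fold change of 1.19 became 0.28 without stage 1. At the FDR alone 3 of the 35 were higher and 3 lower. AGL6 (LITCHI025595.m1) was at -0.57 ± 0.06 (FDR 1.64e-05), averaging 75.2 FPKM in female and 108 FPKM in male buds. A second AGL6-like gene (LITCHI009242.m2) was at -2.93 ± 0.79 (FDR 0.0136), and neither was called. Among 30 tested YABBY, carpel and ovule markers, 1 was called (3.33%), and this was HEC1 (LITCHI006892.m1), a bHLH factor of stigma development, lower in female buds at -1.39 ± 0.26, with overlapping values.

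Hormone genes gave few calls, to be read against 2.04% of all genes tested. In auxin response 2 of 103 (1.94%) were called, IAA14 (LITCHI016699.m1), a repressor of the response, at -1.67 and SAUR66 (LITCHI012103.m1) at 1.63. The SAUR66 value rests on stage 1, where F1 had 5, 7 and 2 counts and M1 none, and the difference was -0.19 without that stage. In gibberellin metabolism and response 2 of 36 (5.56%) were called, gibberellin 2-beta-dioxygenase 8 (LITCHI029529.m1), which inactivates the hormone, at 1.01 and gibberellin-regulated protein 2 (LITCHI011632.m1) at -1.10. The dioxygenase lost its call under 25 alternative settings. In cytokinin metabolism and response 2 of 50 (4.0%) were called, cytokinin hydroxylase (LITCHI009356.m1), which makes trans-zeatin forms, at -1.16 and ARR21 (LITCHI009275.m1) at -2.73. ARR21 had at most 7 counts in a female library and none in 4 of them, against 5 to 31 counts in male libraries, and its call was lost under 17 of 31 alternative settings. Ethylene synthesis gave 1 of 39 (2.56%), an ACC synthase (LITCHI025775.m1) at -1.03, and jasmonate synthesis and signalling 1 of 35 (2.86%), lipoxygenase 2-1 (LITCHI024090.m1) at -1.01. Each of these calls was lost under 10 of 32 alternative settings. At the FDR alone, jasmonate had 2 genes higher and 10 lower, gibberellin 7 and 1, and auxin response 6 and 18. Cytokinin had 3 higher and 6 lower, and ethylene synthesis 0 and 3. Over all genes tested, 7.12% were higher and 8.26% lower at the FDR alone. The summed gibberellin list held 654 to 826 FPKM in female and 556 to 652 FPKM in male buds, with no overlap. The jasmonate sum overlapped, at 1344 to 1862 and 1640 to 2115 FPKM. None of 12 auxin synthesis genes, 47 photosynthesis genes or 55 heat shock genes was called by edgeR, and DESeq2 called 0, 1 and 1 of them. An unadjusted edgeR p under 0.05 was reached by 3 auxin synthesis, 20 photosynthesis and 28 heat shock genes (38.2% over all genes). Heat shock genes at the FDR alone were 2 higher and 13 lower, photosynthesis genes 4 and 2, and auxin synthesis genes 0 and 0. The summed level of the heat shock list was 901 to 1079 FPKM in female and 1130 to 1287 FPKM in male buds, with no overlap.

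Genes of volatiles and plant defence were called in both directions. Of 48 terpene synthases 6 were called, 3 higher and 3 lower (12.5%, against 2.04% of all genes tested). A germacrene D synthase (Litchi_chinensis_newGene_1596), of a sesquiterpene common in floral scent, held 11.7, 11.5 and 12.3 FPKM in F1, against 2.93, 2.21 and 1.86 FPKM in M1, and had a pooled log2 fold change of 3.48 ± 0.28. At stage 3 both sexes were low, with 1.06, 0.801 and 0.536 FPKM in F3, against 0.0252, 0.0178 and 0 FPKM in M3. Entries matching isoprene synthase were at 1.93 (LITCHI021185.m1) and 1.49 (LITCHI021184.m1), and the second lost its call under 18 of 32 alternative settings. Farnesene synthases were lower and separated, at -2.19 (LITCHI029355.m1) and -1.99 (LITCHI029350.m1), and a nerolidol synthase (LITCHI028401.m1) was at -1.26. In a list made after the values were seen, 3 of 6 amino acid N-monooxygenases were called and all were lower (background 1.07% of all genes tested). These enzymes start the synthesis of cyanogenic glucosides in sorghum and lotus, and the tyrosine N-monooxygenase entry LITCHI031076.m1 stood at 0.320, 0.917 and 2.63 FPKM in female buds, against 1.46, 6.76 and 8.70 FPKM in male buds (-2.44 ± 0.25). The entries LITCHI031064.m1 and LITCHI031500.m1 were at -2.54 and -2.36, and the call of LITCHI031500.m1 was lost under 16 of 31 alternative settings.

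Mannose/glucose-specific lectins, sugar-binding storage and defence proteins, gave 4 calls of 8 tested, all higher (background 0.968% of all genes tested), in a list also made after the values were seen. The entry Litchi_chinensis_newGene_2692 stood at 1472, 3196 and 5871 FPKM in female buds, against 723, 971 and 2600 FPKM in male buds (log2 fold change 1.55 ± 0.17). The values overlapped over the stages. LITCHI028104.m1 had 36.2, 632 and 1785 FPKM in the 3 F2 libraries, against 178, 154 and 174 FPKM in M2, so its pooled value of 1.90 ± 0.44 carries that spread, and its call was lost under 14 alternative settings. The other 2 were at 1.52 (LITCHI002509.m1) and 1.36 (Litchi_chinensis_newGene_3577). Without stage 1, or without stage 3, 1 of the 4 was called. In the remaining lists, 1 of 8 CYP78A growth genes was called (12.5%, against 2.04% of all genes tested), CYP78A5 (LITCHI004669.m1) at 2.97. It had no count in 5 of the 9 male libraries, M1 among them, its value was 1.26 without stage 1 and 4.35 without stage 3, and the call was lost under 18 of 31 alternative settings. Of 75 meristem and flowering regulators 1 was called (1.33%), CEN-like protein 1 (LITCHI009311.m1), of the family of TERMINAL FLOWER 1, which was separated between the sexes at -1.65.

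Leaving out any single bud library cost some of the 85 called genes named here their call. The number lost ran from 5 (without F1-3) to 12 (without M1-2 or without M3-2). It was 6 without F2-1, 10 without F2-2 and 6 without F2-3. In all, 16 lost the call when 1 of the F2 libraries was left out. They were REVEILLE 8, APRR5 (LITCHI012124.m1), CONSTANS-LIKE 16, stachyose synthase, LTI65, XERICO, tetraketide pyrone reductase 2, the pollen allergen, ARR21, gibberellin 2-beta-dioxygenase 8, gibberellin-regulated protein 2, the ACC synthase, lipoxygenase 2-1, the isoprene synthase LITCHI021184.m1, the N-monooxygenase LITCHI031500.m1 and CYP78A5.

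Open flowers give libraries that the bud contrast did not use. In those 12 libraries at stages 4 and 5, 7079 of 26243 tested genes were called between the sexes, 27.0% in all, 4198 (16.0%) higher and 2881 (11.0%) lower in female flowers. Of the genes higher in female buds 228 were tested there, and 75 (32.9%) were called higher and 23 (10.1%) lower. Of the genes lower in female buds 265 were tested, and 154 (58.1%) were called lower and 11 (4.15%) higher. The difference between buds and open flowers passed its own test (FDR under 0.01) in 248 of the 546 bud genes, against 43.0% of all 27854 genes tested over the 30 libraries.

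LHY was among those that were low in female flowers at every stage. It held 5.35, 10.7 and 11.6 FPKM in F4 and 4.82, 8.33 and 2.65 FPKM in F5, against 49.0, 41.0 and 42.7 FPKM in M4 and 57.4, 69.3 and 67.1 FPKM in M5. Its open-flower log2 fold change was -3.24 (FDR 3.78e-06). Of the 24 separated genes, 16 were called in open flowers in the same direction. The other 8 were not, among them B-box 19 at 0.17, the Myb-related gene LITCHI002020.m1 at -0.38 and APRR5 (LITCHI026785.m1) at -0.94. None of the 11 floral identity genes was called in buds, against 2.04% of all genes tested. In open flowers 7 of the 11 were called, against 27.0% of all genes tested there. They were AP3-2 at 3.53, STK at 4.38, PI at -1.94, AG at -1.60, AP1 at -1.34, AP3-1 at -1.22 and SHP at 1.08.

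**Figure D5:**
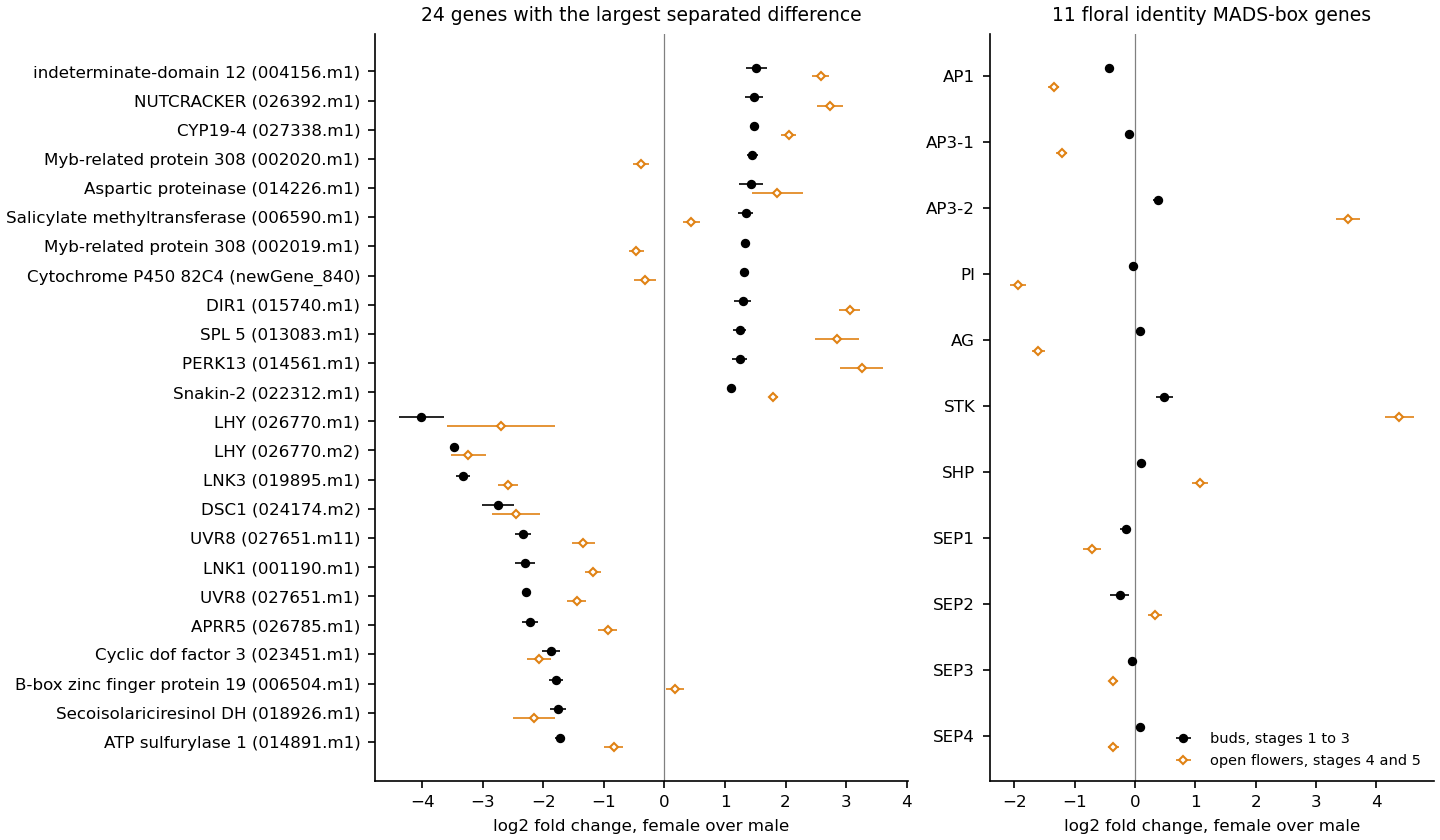
Log2 fold change of female over male flowers (horizontal axes) with standard errors as bars, in buds over stages 1 to 3 (black circles) and in open flowers over stages 4 and 5 (open orange diamonds). The left panel holds the 24 separated bud genes, of which LHY, LNK3 and NUTCRACKER keep their side in open flowers, and the right panel holds the 11 floral identity genes, near 0 in buds and up to 4.38 in open flowers.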

How the data were processed

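Counts and FPKM values per gene and library were deposited in 1 table for all 30 libraries. Per the labels, DNase-treated RNA went into a NEBNext Ultra kit and was read from both ends. This kit does not mark strand, so reads of overlapping or antisense genes cannot be told apart. HISAT2 2.0.4 and StringTie are named in the submitters' processing notes, and the study's methods name Cufflinks for the FPKM values of uniquely mapped reads. The tool that made the deposited counts and the genome build are not given in the sources used here, and gene positions are therefore left out. The authors' own fold changes and p-values, 75 columns for 25 comparisons, were not used.

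Counts were fitted with edgeR 4.0.16 (R 4.3.3): filterByExpr on the 6 bud groups, TMM factors, a mean per group, glmQLFit and glmQLFTest, with the contrast of mean F1, F2 and F3 minus mean M1, M2 and M3. Calls needed a Benjamini-Hochberg FDR under 0.01 over all tested genes and a fold of at least 2. Standard errors (SE) were the absolute log2 fold change over the root of F, and every log2 fold change is from edgeR. The sex by stage interaction used an F test on the same fit, open flowers a separate fit of 12 libraries, and the difference between buds and open flowers a fit of all 30. FPKM served to show levels. A group with no count was set at a floor of 3 counts over the group; this covers counting error only. Replicate numbers did not pair the samples: the correlation of same-numbered deviations lay between -0.049 and 0.037 in the 9 pairs. No 2 libraries held identical counts. The fit was tested on simulated counts.

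Named genes were, first, annotated called genes with all 9 libraries of one sex above all 9 of the other in CPM (counts scaled to library size) and at least 5 CPM on average in the higher sex, the 12 largest in each direction; second, called members of the gene lists; and finally all floral identity MADS-box genes. Gene lists are matches to the deposited annotation text. The comparison, its genes and the lists were chosen with earlier results of these data known, and 6 lists (raffinose family, abscisic acid, B-box, indeterminate-domain, lectins and N-monooxygenases) were added after the values were seen. Alternatives were other scalings, filters, thresholds and tools (limma 3.58.1, DESeq2 1.42.0), other designs, and leaving out each stage and each library.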

Additional observations from a re-analysis of the deposited data

Results flagged for a closer look

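Among the named genes that were called in buds, 7 showed a sex difference that changed among bud stages (interaction FDR under 0.01, edgeR quasi-likelihood F test). The FDR was 0.0017 for the cell division control gene LITCHI017973.m1, 0.00171 for Cyclin-D6-1 (LITCHI013266.m1) and also for REVEILLE 8 (LITCHI018530.m1), 0.00503 for ABORTED MICROSPORES (LITCHI002043.m1), 0.00725 for LNK3 (LITCHI019895.m1), 0.00782 for XERICO (LITCHI004848.m1) and 0.00952 for cytochrome P450 82C4 (Litchi_chinensis_newGene_840).

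The sex difference in buds minus that in open flowers also passed its test (FDR under 0.01) for 48 of the 85 called named genes. Of all 27854 genes tested over the 30 libraries, 43.0% passed. The values are given here on the log2 scale. Among genes lower in female buds, the bud difference lay further down for LNK3 (-0.71), LNK1 (-1.09), APRR5 (LITCHI026785.m1, -1.25), the UVR8 entries (-0.96 and -0.81), B-box 19 (-1.93), ATP sulfurylase 1 (-0.85), CEN-like protein 1 (-1.80), the nerolidol synthase (-1.31), lipoxygenase 2-1 (-1.18) and gibberellin-regulated protein 2 (-3.52). It lay higher for cytokinin hydroxylase (2.12).

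Among genes higher in female buds, the difference was smaller in buds than in open flowers for indeterminate-domain 12 (-1.04), NUTCRACKER (-1.22), CYP19-4 (-0.54), DIR1 (-1.73), SPL5 (-1.58), PERK13 (-1.98), Snakin-2 (-0.66) and CONSTANS-LIKE 16 (-2.47). It was larger in buds for the Myb-related genes (1.86 and 1.83), salicylate carboxymethyltransferase (0.93), cytochrome P450 82C4 (1.67), SAUR66 (2.64), gibberellin 2-beta-dioxygenase 8 (1.19) and the isoprene synthase LITCHI021185.m1 (4.43). Among the tapetum genes it was larger in buds for 4-coumarate-CoA ligase-like 1 (LITCHI004645.m1, 2.97), tetraketide pyrone reductase 1 (2.66) and 2 (1.93), and polyketide synthase A (2.33). The pollen allergen (1.62), a pollen marker, was of this kind as well. So were the cell cycle genes LITCHI017973.m1 (5.11), LITCHI009729.m1 (4.43), Cyclin-D6-1 (3.64) and LITCHI006253.m1 (3.59).

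Among the other genes of the lists drawn up after values had been seen, the difference lay further down in buds for stachyose synthase (LITCHI026584.m1, -1.19), galactinol synthase 3 (LITCHI004174.m1, -4.55), XERICO (-2.85), B-box 21 (LITCHI001893.m1, -1.77), B-box 30 (LITCHI021216.m1, -1.12) and B-box 32 (LITCHI031373.m1, -1.21). It lay higher in buds for a raffinose synthase (LITCHI020575.m1, 1.06), the galactinol synthase 2 entries LITCHI004175.m1 (0.92) and LITCHI004169.m1 (1.06), AFP3 (LITCHI026955.m1, 1.46), the tyrosine N-monooxygenase (LITCHI031076.m1, 5.09) and the lectin Litchi_chinensis_newGene_2692 (1.37).

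The same test passed for 10 of the 11 floral identity genes, none of them called in buds, where 43.0% of all genes passed. The bud difference minus the open-flower difference was 0.34 for SEP3, 1.14 for AP3-1, -0.95 for SHP, 1.94 for PI, 1.70 for AG, 0.94 for AP1, 0.58 for SEP1, 0.47 for SEP4, -3.12 for AP3-2 and -3.86 for STK.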

How the results depend on the processing

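The 546 bud calls became 831 with DESeq2 (405 higher), 344 with a replicate block within each stage (122 higher), 490 with a replicate block over stages, 234 without stage 1 (112 higher, 122 lower), 1421 at a fold of at least 1.5 (675 higher, 746 lower) and 890 at an FDR under 0.05 (449 higher, 441 lower). Without stage 3, 127 were higher. Scaling by library size alone gave 287 higher and 263 lower. The 46 interaction calls became 23 with all 30 libraries in one fit and 22 with a replicate block. Of the 18 bud libraries, 6 correlated best with their own replicate number. Leaving out single libraries gave 447 (without M3-3) to 659 (without F2-3) calls, 213 to 378 higher and 233 to 392 lower, 9 (without F3-1) to 220 (without F2-3) for the interaction, 236 (without F1-2) to 585 at stage 1, 83 (without M2-2) to 526 at stage 2, 146 (without F3-2) to 444 at stage 3 (each highest without F2-3), 6555 to 7300 in open flowers and 11446 to 12358 for buds against open flowers. Of the 85 called named genes 40 were called under every alternative. The others lost the call at least once, 36 without stage 1 and 25 with the block within stage. That block left 1 tapetum, 0 cell cycle, 4 terpene synthase, 2 lectin, 1 auxin response, 1 cytokinin, 0 ethylene, 0 gibberellin and 0 CYP78A calls. Direction turned for SAUR66 (LITCHI012103.m1, -0.19 without stage 1) and for uncalled identity genes near 0: PI (0.0049 with library size alone, 0.0942 without stage 3), SHP (-0.0202) and AG (-0.0015) without stage 2, and SEP3 (0.0084) and AP3-1 (0.069) without stage 3. The causes were not tested. Of the called genes 96 had a mean under 1 CPM in both sexes, and their fold changes are rough.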
